A study of Mus musculus with 9 samples.

Results

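Olfactory and vomeronasal receptor genes were examined as places of UBTF binding in mouse pre-B cells, by chromatin immunoprecipitation sequencing (ChIP-seq). A UBTF peak was counted as a receptor peak when its summit, the position that the peak caller marks as its highest point, lay inside or within 5 kb of a gene whose symbol starts with Olfr, Vmn1r or Vmn2r on chromosomes 1 to 19. The annotation holds 1678 such genes there (1243 Olfr, 256 Vmn1r and 179 Vmn2r, pseudogenes included) among 34653 genes in all, and their windows cover 22.1 Mb. The 6 peak lists hold 15284 receptor peaks among 1796909 peaks. Each list is 1 library: 2 of wild type C57BL/6 mice aged 4 to 6 weeks, 2 of premalignant Eµ-Myc mice of the same age and 2 of malignant Eµ-Myc mice aged 10 to 20 weeks with spontaneous lymphoma. Eµ-Myc mice were heterozygous on the C57BL/6 background and carry a Myc transgene driven in B cells by the immunoglobulin heavy chain enhancer. Cells were sorted from bone marrow, for high B220 with low IgM and low IgD in wild type and premalignant mice and, by the study's methods, as B220-positive cells without IgM or IgD in malignant mice. Female mice gave the wild type and premalignant cells while either sex gave malignant cells, and immunoprecipitation used a rabbit antiserum to UBTF1/2. The 3 input samples of the series were not analysed here.

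UBTF is an HMG-box protein of the nucleolus that loads onto ribosomal RNA genes and keeps them open for RNA polymerase I. Olfactory receptors (Olfr) and vomeronasal receptors of types 1 and 2 (Vmn1r, Vmn2r) are the G protein-coupled receptors of the nose. They lie in large tandem clusters of close paralogs in AT-rich, repeat-rich sequence, and each sensory neuron transcribes very few of them under heterochromatin of the remaining genes. They are not known as genes of B cells. Peak lists hold no RNA, and the study's RNA sequencing of these cell stages was not used here, so their silence was not examined. As a check of the labelled cell type, 20 genes of pre-B cells (such as Pax5 and Cd79b) were looked up, and between 6 and 9 of them had a UBTF summit within 1 kb of the start in each list (30% to 45%). Other protein-coding genes had one at 21.0% to 46.8%, so these counts are near the background and do not bear on the cell type.

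Peak numbers differed by list before any receptor was considered. In wild type cells 116180 and 184609 peaks were listed. For premalignant cells the totals were 78113 and 575674, those of malignant cells were 279068 and 563265, and the number of reads behind them is unknown. In the lists of wild type replicates 1 and 2 and premalignant replicate 1 the narrowest peak spanned 240, 250 and 260 bp, and these are called narrow lists below. In the lists of premalignant replicate 2 and malignant replicates 1 and 2 it spanned 680, 800 and 670 bp, and these are called wide lists. Wild type libraries are all narrow and malignant libraries all wide, so stage and kind of list cannot be told apart between those stages. Several summits may also share 1 region. That was so for 13.6%, 20.4% and 17.0% of receptor peaks in the narrow lists and for 56.5%, 45.3% and 51.7% in the wide lists.

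The receptor genes with the best summits on average over the 6 lists had them on or beside short tandem repeats. By a set rule the best-ranked summits were taken from the 230 receptor genes whose window held a summit in all 6 lists, and 1 of them is shown here. It is mm9 sequence of the plus strand, 121 bases around the summit, with the longest perfect tandem repeat near the summit, a GA repeat, in capitals.

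Olfr702, chr7:113972049-113972169: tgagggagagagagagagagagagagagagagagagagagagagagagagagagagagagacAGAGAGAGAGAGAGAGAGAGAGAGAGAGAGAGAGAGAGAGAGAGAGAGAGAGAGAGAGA

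The Olfr702 summit lay upstream of this olfactory receptor gene (chromosome 7, 113967003 to 113970257, minus strand) at -1852 bp from its start. It ranked 167, 284 and 267 in the narrow lists and 4789.5, 480 and 807 in the wide lists, where rank 1 is the highest score of a list. The lists differ in length, and the best rank percentile of the gene (100 being the top of a list) was 99.9, 99.8 and 99.7 in the narrow lists and 99.2, 99.8 and 99.9 in the wide lists, so the kinds of list overlapped.

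A second kind of receptor peak had no tandem repeat of 40 bp or more near its summit. It was met in all lists, including 272 of 735, 656 of 1199 and 266 of 528 receptor peaks in the narrow lists. Rule-named examples are the best summits of genes with a peak in at least 1 premalignant and 1 malignant list but in no wild type list. By that rule the wild type lists could give no example. Their sequence has no tandem repeat of 40 bp or more, yet the 31 bases at their summits occur 6560 and 7006 times in the genome.

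Olfr742, chr14:51139401-51139521: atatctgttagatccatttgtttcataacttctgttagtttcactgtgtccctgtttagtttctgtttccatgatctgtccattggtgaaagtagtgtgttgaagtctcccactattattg

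Olfr1101, chr2:86825709-86825829: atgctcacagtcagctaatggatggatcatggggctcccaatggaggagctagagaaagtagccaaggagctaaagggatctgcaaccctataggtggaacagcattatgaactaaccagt

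Olfr742 had this peak in premalignant replicate 2 (rank 29507) and malignant replicate 2 (rank 25051.5) and in no other list. Olfr1101 had it in premalignant replicate 2 (rank 100801) and malignant replicates 1 (rank 199634) and 2 (rank 17246). In all, 519 receptor genes met the rule (30.9%, against 7.27% of 19985 other protein-coding genes) and 484 of them also lacked a summit in premalignant replicate 1, the third narrow list (28.8% against 6.40%). The reverse, a summit in a wild type list and in no Eµ-Myc list, held for 17 genes (1.01% against 0.966%), of which the best were Olfr314, Olfr298 and Olfr128. The wide lists are the longer ones, and windows of other protein-coding genes are longer (median 27.4 kb against 10.96 kb for receptor genes), and the part of these in the shares was not tested. Some unbroken 31-base words recurred between receptor summits without a long tandem repeat. The pair below shows the words with the highest mean share over the lists, apart from simple repeats and from words that overlap a better one.

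Word 1: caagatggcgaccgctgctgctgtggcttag

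Word 2: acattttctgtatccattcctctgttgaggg

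Word 1 lay within 100 bp of 8.46%, 3.35% and 6.02% of such receptor summits in the narrow lists (23 of 272, 22 of 656 and 16 of 266), and of 0.196%, 1.07% and 0.114% in the wide lists. At the same kind of summit in other genic sequence it was present at 2.84%, 1.51% and 3.53% in the narrow lists and at 0.16%, 0.802% and 0.0907% in the wide lists. Word 2 lay at 2.21%, 3.81% and 3.01% of receptor summits in the narrow lists and at 2.12%, 2.69% and 2.62% in the wide lists, against 0.635%, 1.45%, 1.35%, 1.79%, 2.04% and 1.78% at other genic summits. Both words were more frequent at receptor summits than at other genic summits in each of the 6 lists. They were chosen for being frequent at receptor summits, so this is a description.

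The main comparison asked whether UBTF peaks were denser or sparser around receptor genes than around other genes. Receptor windows held fewer summits per Mb than other genic sequence in the 3 narrow lists and more in the 3 wide lists. In wild type replicates 1 and 2 the receptor density was 33.3 and 54.3 summits per Mb against 43.4 and 66.2 in other genic sequence, and in premalignant replicate 1 it was 23.9 against 26.3. In premalignant replicate 2 it was 255 against 150, and in malignant replicates 1 and 2 it was 102 against 79.4 and 224 against 155. The ratios were thus 0.768, 0.821 and 0.911 in the narrow lists and 1.71, 1.29 and 1.44 in the wide lists. The mean log2 ratio of 0.14 ± 0.47 (SD, n = 6) was no larger than the spread between libraries (two-sided exact sign-flip test over the libraries, p = 0.5, adjusted p = 0.7 over 7 tests). With 6 libraries this test cannot give a p below 0.03125.

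**Figure D1:**
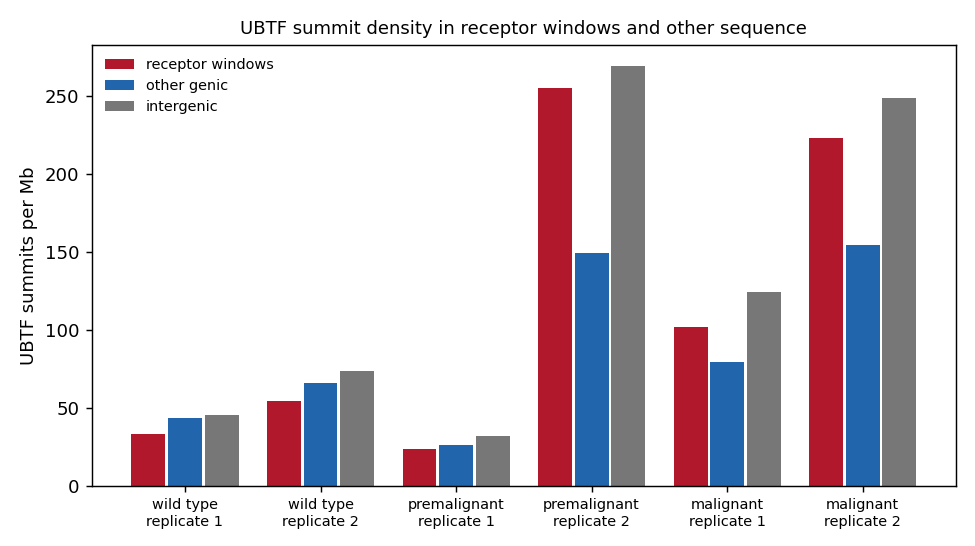
Bars give UBTF summits per Mb in each of the 6 libraries for receptor windows (red), other genic sequence (blue) and intergenic sequence (grey), the last 2 being sequence inside or within 5 kb of other genes and all the rest. Receptor windows lie below other genic sequence in the first 3 libraries, above it in the last 3, and below intergenic sequence in all 6.

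Intergenic sequence, which was set beside the receptors after these values were seen, held 45.4, 73.5, 32.1, 270, 125 and 249 summits per Mb in the same order of libraries. Receptor windows were at 0.734, 0.739, 0.746, 0.946, 0.821 and 0.897 of that level, lower in 6 of 6 libraries (exact sign-flip test, p = 0.03125, adjusted p = 0.0729). Part of the excess of the wide lists came from lines that share a region. With such lines merged and each merged region counted once, the ratio of receptor to other genic density was 0.805, 0.823 and 0.911 in the narrow lists and 1.27, 1.11 and 1.08 in the wide lists.

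The sequence under receptor summits was far more repetitive than the windows as a whole. A 31-base word (31-mer) taken every 200 bp occurred once in the genome at 70.8% of positions in receptor windows and more than 1000 times at 4.89%. At receptor summits the share of words with more than 1000 copies was 60.3%, 59.8% and 66.3% in the narrow lists and 41.9%, 55.8% and 45.5% in the wide lists. At other genic summits it was also high, at 45.0%, 43.6% and 50.2%, then 41.0%, 43.7% and 41.0%. In premalignant replicate 2 the shares were thus nearly equal. Single-copy words were found at 9.93%, 8.76% and 5.30% of receptor summits in the narrow lists and at 16.3%, 8.78% and 15.5% in the wide lists. Other genic summits were on single-copy words at 29.6%, 30.5%, 24.5%, 22.9%, 31.2% and 26.5%, a higher share in each library. According to the study's methods reads were mapped with bowtie2 at default options, under which a read that matches several places equally well is put at one of them, so the copy of a repeat that received a peak is not certain.

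Set per Mb of sequence of the same copy number, the receptor windows were below other genic sequence in every class in the narrow lists. On single-copy sequence the receptor windows held 4.67, 6.72 and 1.79 summits per Mb there, against 14.6, 22.9 and 7.28 in other genic sequence. On words of more than 1000 copies they held 411, 665 and 325 against 599, 885 and 404. The wide lists had no such common order. On single-copy sequence the receptor density was 58.8 against 38.8 in premalignant replicate 2, 12.7 against 28.1 in malignant replicate 1 and 49.1 against 46.5 in malignant replicate 2. On words of 2 to 10 copies, to which close paralogs belong, the 3 wide lists gave 210, 62.7 and 160 per Mb for receptors against 306, 107 and 313. On words of more than 1000 copies they gave 2191, 1167 and 2085 against 1884, 1065 and 1951.

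**Figure D2:**
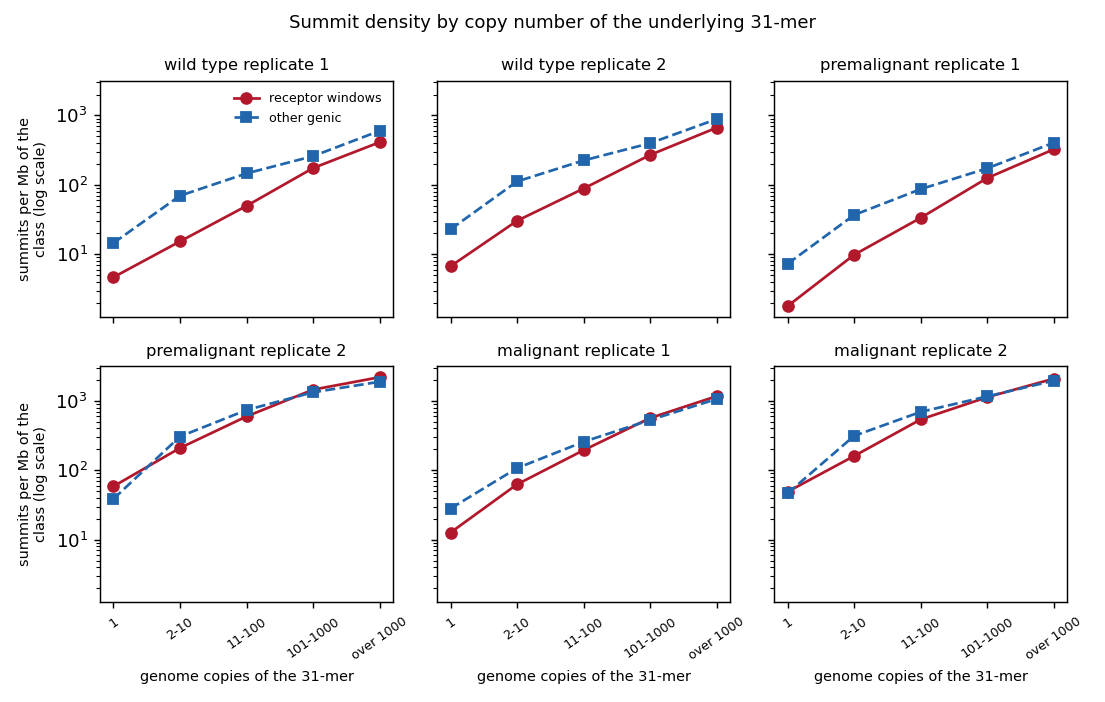
Each panel is 1 library and plots summits per Mb of sequence of a class (log axis) against the number of genome copies of the 31-mer, for receptor windows (red circles) and other genic sequence (blue squares). Density rises with copy number in both kinds of sequence; the red line lies below the blue one throughout the upper 3 panels (narrow lists), and the lines cross in the lower 3 (wide lists).

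The direction of the density ratio therefore turned on what receptor windows were set against. Receptor windows are AT-rich (37.9% GC against 43.3% in other genic sequence) and have 70.6% single-copy bases against 87.9%. With other genic density standardised to the GC content of the receptor windows in 10-kb bins, the ratio was above 1 in 6 of 6 libraries, at 1.02, 1.09 and 1.16 in the narrow lists and 1.45, 1.45 and 1.36 in the wide lists (exact sign-flip test, p = 0.03125, adjusted p = 0.0729). With it standardised to the classes of 31-mer copy number, the ratio was 0.504, 0.538 and 0.592 in the narrow lists and 1.03, 0.865 and 0.896 in the wide lists, below 1 in 5 of 6. With both standardised together it was 0.685, 0.725, 0.779, 0.936, 0.967 and 0.887, below 1 in 6 of 6 libraries (exact sign-flip test, p = 0.03125, adjusted p = 0.0729). The copy-class settings were added after the data were seen. No setting of this ratio gave an adjusted p under 0.05, the smallest being 0.0729.

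**Figure D3:**
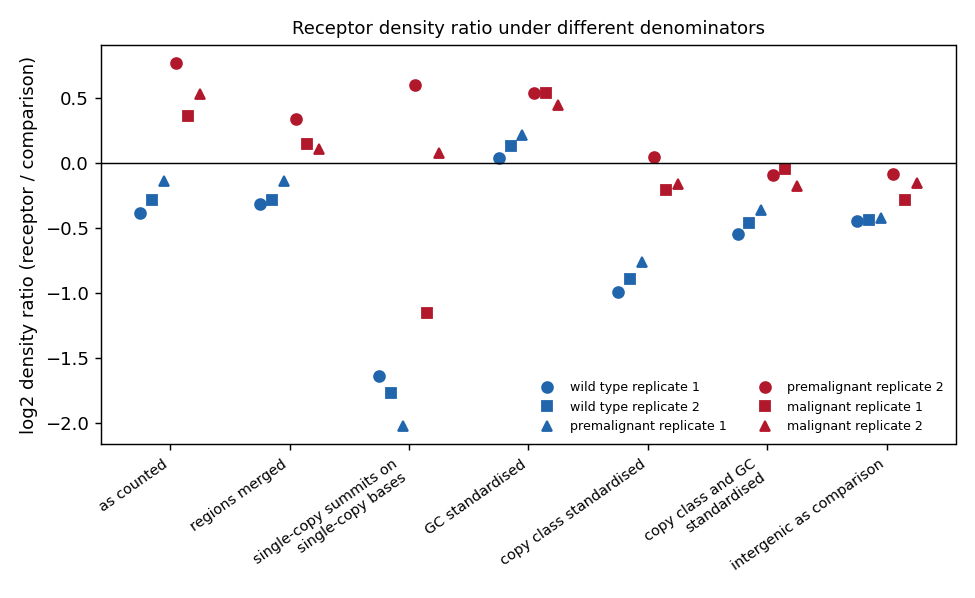
Points give the log2 ratio of receptor to comparison density for each library (blue, narrow lists; red, wide lists) under 7 ways to count or to set the comparison. The points straddle 0 as counted, lie above 0 with GC standardised, and lie below 0 in all 6 libraries with copy class and GC standardised together or with intergenic sequence as the comparison.

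Within receptor windows the coding exons were nearly free of UBTF summits. Olfactory and type 1 vomeronasal receptors are encoded in a single coding exon, while type 2 genes have several. The 1.53 Mb of receptor coding exons held 0 and 5 summits in the wild type lists, 0 and 7 in the premalignant lists and 4 and 5 in the malignant lists. That is at most 4.56 per Mb in any library, and the lists with 0 allow up to 1.96 per Mb for counting error alone, taking 3 counts as the limit. Other genes' coding exons held 58.6, 120, 29.6, 52.0, 167 and 66.0 summits per Mb in the same order of libraries, above the receptor exons in 6 of 6. The mean difference was -79.9 ± 50.6 summits per Mb (SD, n = 6; two-sided exact sign-flip test, p = 0.03125, the smallest this test can give). This comparison was chosen after its values were seen and stands outside the 7 adjusted tests. Relative to other genic sequence as a whole, other genes' coding exons were at 1.35, 1.82, 1.13, 0.347, 2.10 and 0.426 in the same order. They were thus sparse too in premalignant replicate 2 and malignant replicate 2. Single-copy sequence of receptor windows held 4.67, 6.72 and 1.79 summits per Mb in the narrow lists and 58.8, 12.7 and 49.1 in the wide lists. The part of copy number in the low exon density was not tested.

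Non-coding exons of receptor genes, 0.389 Mb in all, were also sparse, with 1, 3 and 0 summits in the narrow lists and 6, 2 and 6 in the wide lists (0 to 15.4 per Mb). Most receptor summits lay in introns and flanks. Introns of receptor genes held 41.7, 61.3 and 30.1 summits per Mb in the narrow lists and 366, 152 and 303 in the wide lists. The 5 kb upstream held 36.7, 56.8, 24.8, 231, 87.3 and 206 per Mb, and the 5 kb downstream 33.1, 60.4, 25.5, 280, 115 and 252. Single-copy bases made up 65.1% of the coding exons, 55.4% of introns, 77.4% of upstream and 73.3% of downstream sequence. The body of a peak reached further than its summit, and between 3.23% and 10.3% of the 2107 receptor coding exons were overlapped by some peak in a list. The same share for coding exons of other genes was not measured, so this is a description only.

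Receptor gene starts were marked by UBTF less often than starts of other protein-coding genes. A summit lay within 1 kb of the start of 76 and 98 of the 1678 receptor genes in the wild type lists (4.53% and 5.84%), where 35.5% and 43.9% of the 19985 other protein-coding genes had one. It was so for 36 and 182 receptor genes in the premalignant lists (2.15% and 10.8%, against 21.0% and 30.0%) and for 66 and 195 in the malignant lists (3.93% and 11.6%, against 46.8% and 36.5%). Receptor genes were lower in 6 of 6 libraries (mean difference -29.1 ± 9.97 percentage points, SD, n = 6; exact sign-flip test, p = 0.03125, adjusted p = 0.109). In all 6 lists at once 14 receptor genes had such a start summit, among them Olfr1006, Olfr630, Vmn1r188 and Vmn1r206, while the share of other protein-coding genes was 8.88%. In no list was there a start summit for 1359 receptor genes (81.0%), against 31.8% of other protein-coding genes. The difference was smaller in 2 settings, at -14.2 points within 5 kb of the start, with 5 of 6 libraries lower, and at -15.3 points with lists shortened to 78113 peaks, with 6 of 6 lower. The annotated start was the first coding base in 60.8% of protein-coding receptor genes and in 8.52% of other protein-coding genes. The start used here may therefore not mark the promoter of many receptor genes, and this was not tested.

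Receptor summits lay on sequence of lower GC content than other genic summits in every library. The median GC content within 100 bp of a receptor summit was 43.8%, 44.3% and 43.8% in the narrow lists and 40.3%, 40.8% and 40.8% in the wide lists. At other genic summits it was 48.8%, 48.8%, 48.3%, 42.8%, 46.3% and 44.3%. The mean difference was -4.23 ± 1.08 percentage points (SD, n = 6; exact sign-flip test, p = 0.03125, adjusted p = 0.109). All medians at receptor summits were above the 37.9% GC of the receptor windows themselves.

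Tandem repeats split the lists as density did. A stretch of at least 40 bp repeating a unit of 1 to 6 bp lay within 100 bp of 63.0%, 45.3% and 49.6% of receptor summits in the narrow lists but of 9.38%, 12.8% and 11.2% in the wide lists. Other genic summits had one at 50.8%, 41.2% and 46.2% in the narrow lists, below the receptors, and at 12.8%, 15.9% and 16.4% in the wide lists, above them. Over the 6 libraries the difference was 1.33 ± 6.54 percentage points (SD, n = 6; exact sign-flip test, p = 0.656, adjusted p = 0.766). Its direction turned without wild type replicate 1 (-0.84) and with repeats of at least 24 bp (-1.20), and it was 4.35 with lists shortened to 78113 peaks, higher in 5 of 6 libraries. The density of such summits in receptor windows itself ranged from 11.9 to 25.1 per Mb over all lists, close to other genic sequence (ratios of 0.952, 0.902, 0.979, 1.25, 1.04 and 0.986). The density of receptor summits without one ranged from 12.1 to 29.7 per Mb in the narrow lists and from 89.1 to 231 per Mb in the wide lists, so the lists differed mainly in these. Their ratio to other genic sequence was 0.578, 0.765 and 0.853 in the narrow lists and 1.77, 1.33 and 1.53 in the wide lists. Dinucleotide repeats made up 81.9%, 83.8% and 87.8% of the tandem repeats at receptor summits in the narrow lists and 46.8%, 81.0% and 59.0% in the wide lists. In the narrow lists summits on tandem repeats ranked higher among receptor peaks, with median rank percentiles of 60.5, 72.9 and 64.1 against 36.6, 36.9 and 34.5 for the remaining receptor peaks. In the wide lists these medians were 44.4, 56.7 and 48.1 against 47.9, 47.5 and 49.0.

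Receptor peaks were wider than other genic peaks in the wide lists, and their ranks differed by less than the spread between libraries. Their median width was 1994, 2000 and 2000 bp in the narrow lists, against 2000, 2000 and 1995 bp for other genic peaks. In the wide lists it was 2602, 2024 and 2291 bp against 2000, 1978 and 1904 bp, wider in each of the 3. Peaks over 5 kb made up 30.1%, 18.4% and 23.4% of receptor peaks there and 23.0%, 17.2% and 17.0% of other genic peaks. The log2 width ratio averaged 0.11 ± 0.17 (SD, n = 6; exact sign-flip test, p = 0.188, adjusted p = 0.328). Leaving out 1 library kept it between 0.06 (without premalignant replicate 2) and 0.14 (without wild type replicate 1). With windows reaching 20 kb from genes it was 0.34, above 0 in 6 of 6 libraries (exact sign-flip test, p = 0.03125, adjusted p = 0.0729). Ranks were taken from the score of the peak caller within each list, with 100 as the best percentile. The median rank percentile of receptor peaks was 52.5, 50.8 and 46.9 in the narrow lists and 47.6, 48.5 and 49.0 in the wide lists. Other genic peaks had medians of 49.8, 51.9, 52.9, 46.4, 48.0 and 46.8. The difference averaged -0.0911 ± 3.19 points (SD, n = 6; exact sign-flip test, p = 1, adjusted p = 1). Of the best 1000 peaks of a list, between 5 and 8 were receptor peaks and between 328 and 446 other genic peaks.

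By rank, the ratio kept its side of 1 in most bins of each list, while among the best peaks some lists crossed 1 and others did not. In premalignant replicate 2 and malignant replicate 2 it was above 1 in each of 10 equal bins of rank percentile (1.49 to 1.87 and 1.25 to 1.61), and in malignant replicate 1 in 9 of 10. In wild type replicates 1 and 2 it was above 1 in 1 of 10 bins, the best, and in premalignant replicate 1 in 4 of 10. With every list shortened to its best 78113 peaks, the length of the shortest, the ratios were 0.78, 0.803 and 0.911 in the narrow lists and 1.59, 1.14 and 1.35 in the wide lists. Among the best 20000 peaks they were 0.945, 1.04 and 0.876 in the narrow lists and 1.42, 0.974 and 1.26 in the wide lists, so wild type replicate 2 was above 1 and malignant replicate 1 below it. In the best 1 percentile, on 7 to 13 receptor peaks in each narrow list, the narrow lists were at 1.11, 1.01 and 1.23. The wide lists, on 40, 14 and 45 receptor peaks, were at 1.27, 0.680 and 1.19. Premalignant replicate 2 and malignant replicate 2 thus stayed above 1 in each of these cuts.

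The 3 receptor families kept different places in the narrow and the wide lists. Olfr windows held 36.3, 55.8 and 24.5 summits per Mb in the narrow lists and 212, 83.1 and 198 in the wide lists. Vmn1r windows held 21.8, 51.2, 23.1, 281, 132 and 247 per Mb, and Vmn2r windows 32.2, 52.4, 22.9, 349, 134 and 276. Per Mb of window, Olfr was thus the densest family in each narrow list and the sparsest in each wide list. The log2 difference between Olfr and Vmn1r was 0.31 on average over the narrow lists and -0.46 over the wide lists, and that between Olfr and Vmn2r 0.12 and -0.63. Over all 6 libraries neither differed beyond the spread (-0.07 ± 0.50, p = 0.75, adjusted p = 0.75, and -0.25 ± 0.42, p = 0.25, adjusted p = 0.375, by exact sign-flip tests over 3 pairs). Vmn1r lay below Vmn2r in 5 of 6 libraries (-0.18 ± 0.22, exact sign-flip test, p = 0.0625, adjusted p = 0.188). Single-copy bases made up 81.7% of Olfr windows, 52.4% of Vmn1r windows and 52.9% of Vmn2r windows. With all summits counted but only single-copy bases in the denominator, the order in the narrow lists turned. Olfr was then below Vmn2r in 6 of 6 libraries (mean log2 difference -0.88, exact sign-flip test, p = 0.03125, adjusted p = 0.0938) and below Vmn1r in 5 of 6 (-0.71, exact sign-flip test, p = 0.0625, adjusted p = 0.0938). This change moves every library by the same amount, set by these single-copy shares. Neither the turn nor the p therefore measures density on single-copy sequence. A gene's window held a summit in all 6 lists for 154 of 1243 Olfr genes (12.4%), 21 of 256 Vmn1r genes (8.20%) and 55 of 179 Vmn2r genes (30.7%), whose windows are longer (median 28.1 kb against 10.96 and 10.93 kb). Among other protein-coding genes this share was 44.3%, with a median window of 27.4 kb. In no list did the window hold one for 118, 25 and 1 receptor genes of these families (8.58% of all receptor genes), against 1.99% of other protein-coding genes.

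The same receptors were also described by cluster. Receptor genes less than 500 kb apart, at least 5 in a run, formed 46 clusters. In premalignant replicate 2 and malignant replicate 2 all 46 were denser than other genic sequence as a whole, with median ratios of 2.54 and 2.15. In malignant replicate 1, 43 were (median 2.27). In the narrow lists 23, 32 and 37 of 46 were denser, with medians of 0.993, 1.10 and 1.38. Every wide list stood above every narrow list in 35 clusters. These ratios exceed those of the windows because clusters include the sequence between receptor genes. Whole clusters held 39.6, 73.7 and 34.0 summits per Mb in the narrow lists and 403, 185 and 341 in the wide lists, and the 200 kb on either side, free of receptor windows, 45.6, 72.6, 29.9, 235, 122 and 209. The log2 ratio of cluster to flank averaged 0.35 ± 0.40 (SD, n = 6), above 0 in 5 of 6 libraries and below it in wild type replicate 1 (exact sign-flip test, p = 0.125, adjusted p = 0.292). It was 0.70 with all summits counted but only single-copy bases in the denominator, above 0 in 6 of 6 libraries (exact sign-flip test, p = 0.03125, adjusted p = 0.0729). This change adds the same amount to every library, set by the single-copy share of clusters (62.3%) and flanks (79.3%). Neither the 6 of 6 nor the p therefore measures density on single-copy sequence.

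**Figure D4:**
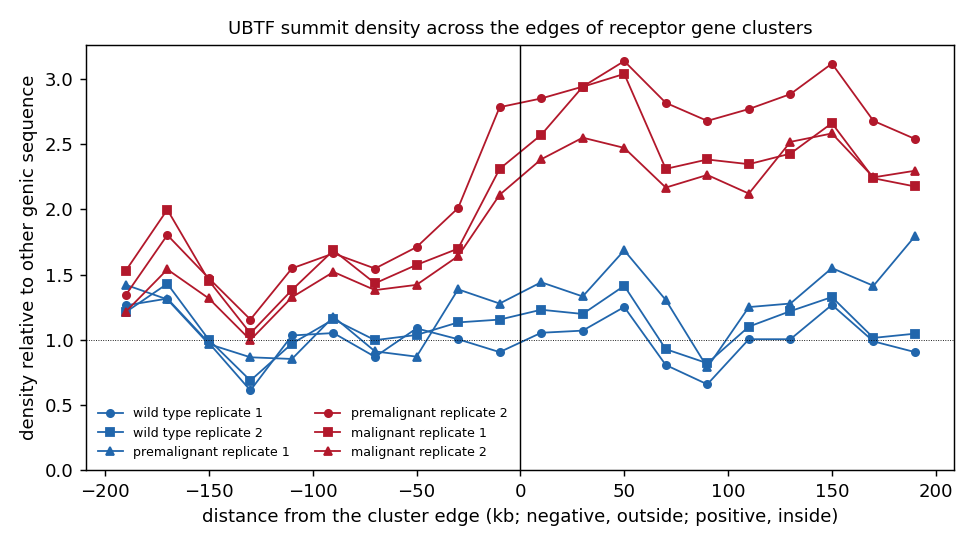
Summit density relative to other genic sequence is plotted in 20-kb steps across the edges of 35 clusters of at least 400 kb, for 6 libraries (blue, narrow lists; red, wide lists). In the wide lists the ratio lies between 2.11 and 2.78 in the last 20 kb outside the edge and between 2.47 and 3.14 at 40 to 60 kb inside, while the narrow lists lie between 0.906 and 1.28 and between 1.25 and 1.69 there.

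Among the 13 clusters of at least 40 receptor genes, the type 1 vomeronasal cluster from Vmn1r91 to Vmn1r183 stood apart. It has 79 genes on chromosome 7 (20686507 to 24840710) and 11.9% single-copy bases, the fewest of these 13. Relative to other genic sequence its density was 0.399, 1.37 and 1.32 in the narrow lists and 4.16, 4.19 and 3.34 in the wide lists. Outside these 13, the cluster from Olfr334-ps1 to Olfr368 (37 genes, 65.0% single-copy bases) had wide-list ratios nearly as high, at 4.11, 3.37 and 3.31. The largest cluster, from Olfr987 to Olfr1274-ps on chromosome 2 (85171054 to 90241831), has 268 olfactory genes and 71.4% single-copy bases. Its ratios were 0.894, 1.01 and 1.25 in the narrow lists and 2.38, 1.87 and 2.04 in the wide lists. The class I olfactory cluster from Olfr543 to Olfr692 on chromosome 7 (109625287 to 112517869), whose receptors resemble those of fish, has 145 genes, and its ratios were 1.14, 1.27 and 1.78, then 2.46, 2.21 and 2.29. On chromosome 19 the cluster from Olfr1417 to Olfr1505 (67 genes) had ratios of 1.05, 0.978 and 0.598 in the narrow lists and 2.15, 0.976 and 1.85 in the wide lists. Other genic sequence of that chromosome was also sparse in premalignant replicate 1 and malignant replicate 1, at 0.791 and 0.704 of its density over all chromosomes, and the part of this in the cluster's ratios was not tested.

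**Figure D5:**
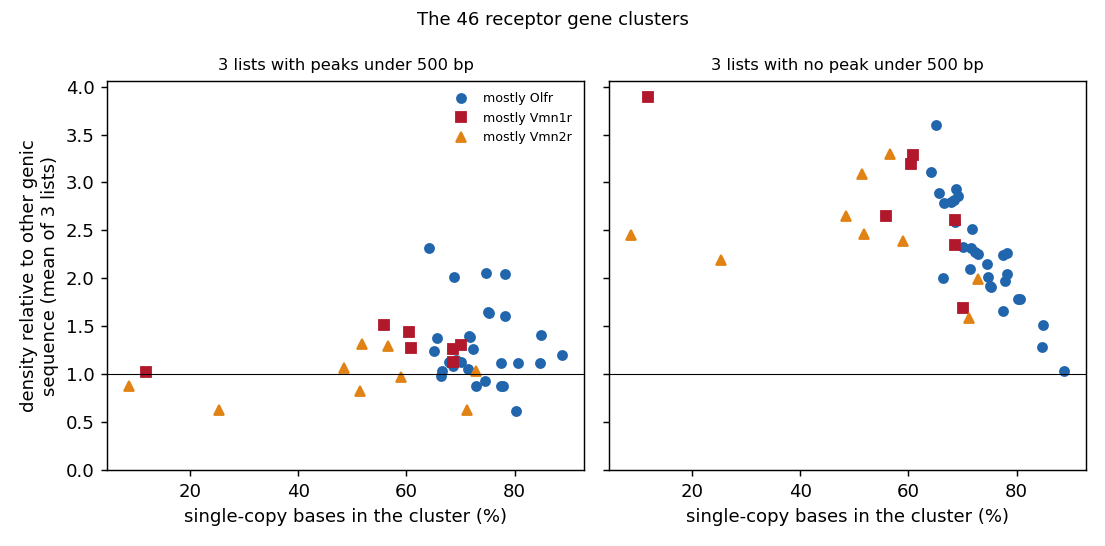
Each point is 1 of 46 clusters, plotted by its share of single-copy bases and its density relative to other genic sequence (mean of 3 lists), with narrow lists on the left and wide lists on the right. Clusters spread around 1 on the left, and on the right they fall from between 3 and 4 towards 1 as single-copy bases become more frequent, apart from a pair of Vmn2r clusters with few single-copy bases.

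Over the 46 clusters the density ratio and the share of single-copy bases had Spearman's rho of -0.76, -0.668 and -0.685 in the wide lists and 0.387, 0.172 and -0.0669 in the narrow lists. This is a description across clusters that share a library, and their repeat content and GC content differ together.

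Other gene families that lie in tandem gave a second comparison. Set against zinc finger genes (370 genes with symbols in Zfp, another large family in repeat-rich clusters), receptor windows had 0.759, 0.813 and 0.894 of their density in the narrow lists and 1.88, 1.28 and 1.70 times in the wide lists. Set against taste receptor genes (35 Tas2r genes, 0.339 Mb) they had 1.26, 1.54 and 1.16 times the density in the narrow lists and 1.42, 1.45 and 1.15 times in the wide lists. For 16 trace amine receptor genes (Taar) these ratios were 0.78, 1.78 and 1.96, then 1.35, 2.39 and 1.22, on 0.164 Mb. For 42 beta-defensin genes (Defb), which encode antimicrobial peptides, they were 0.824, 0.631 and 1.70, then 1.25, 1.49 and 1.16. For 53 genes of hair keratin-associated proteins (Krtap) they were 0.614, 1.00 and 0.794, then 1.79, 1.41 and 1.57. In the wide lists receptor windows were denser than each of these 5 families, while in the narrow lists the direction varied by family and library. Against other genic sequence, Tas2r windows were at 0.612, 0.534 and 0.785 in the narrow lists and 1.20, 0.890 and 1.26 in the wide lists. Taar windows were at 0.985, 0.461 and 0.465, then 1.26, 0.538 and 1.18. Defb windows were at 0.933, 1.30 and 0.536, then 1.36, 0.863 and 1.25. Zfp and Krtap windows were below 1 in premalignant replicate 2 and malignant replicate 2. A rise above 1 in these lists was thus not particular to the receptors.

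Single genes followed these patterns. The 10 genes with the highest mean of their best rank percentiles over all 6 lists were Olfr1015, Olfr806, Olfr646, Olfr702, Vmn2r77, Olfr677, Olfr1375-ps1, Olfr552, Olfr271-ps1 and Olfr371, with means between 98.0 and 99.9. The best summit in each of these 10 windows lay on or beside a tandem repeat, and in no case in an exon. That repeat was under the 40 bp used above for Olfr552 (27 bp), Olfr271-ps1 (34 bp) and Olfr371 (36 bp). Of all receptor summits, 45.3% to 63.0% in the narrow lists and 9.38% to 12.8% in the wide lists had a repeat of 40 bp or more. Among receptors fixed by name, Vmn2r58, a type 2 vomeronasal receptor gene, had 3, 5, 3, 22, 12 and 23 summits in its window in the order of the libraries above. Olfr56, whose annotated gene spans chromosome 11 from 48792391 to 48948889, had 6, 11, 3, 62, 23 and 61. Olfr78, a class I receptor also known in carotid body and blood vessels, had 2, 3, 2, 5, 3 and 5, with a best percentile of 99.2 in malignant replicate 2 and between 72.9 and 89.8 elsewhere. Olfr2, the I7 receptor used to study ligand binding, had 1, 0, 0, 2, 1 and 5. Olfr17 (the P2 receptor) and Vmn1r51 had none in the 3 narrow lists or in malignant replicate 1. Olfr558, a class I receptor, went the other way, with 1 summit in each narrow list and in malignant replicate 1 and none in premalignant replicate 2 or malignant replicate 2. The other fixed names (Olfr16, Olfr73, Olfr151, Vmn2r1, Vmn2r26 and Vmn2r116) had between 0 and 3 summits in the narrow lists and between 1 and 18 in the wide lists.

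Replicate lists were compared for shared receptor peaks, where a longer list offers more to overlap. Of the receptor peaks of the shorter list of each stage, 586 of 735 (79.7%, wild type), 430 of 528 (81.4%, premalignant) and 2024 of 2256 (89.7%, malignant) overlapped a peak of the other replicate by at least 1 bp. Other genic peaks of the same lists did so at 81.2%, 68.0% and 76.1%. The difference averaged 8.54 ± 8.63 percentage points over 3 stages (exact sign-flip test, p = 0.5, where the smallest possible p is 0.25). With both lists of a stage shortened to 78113 peaks, the receptor shares were 74.6%, 43.4% and 67.5%, against 71.9%, 32.3% and 61.0%.

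Stages were compared last. The log2 ratio of receptor to other genic density was -0.33 ± 0.07 for wild type libraries, 0.32 ± 0.64 for premalignant ones and 0.45 ± 0.12 for malignant ones (SD, n = 2 each). The malignant and wild type values did not overlap, but in the exact permutation test used here 2 libraries against 2 cannot give a p below 0.333 (two-sided, p = 0.333, adjusted p = 0.75 over 9 tests for the difference of 0.78). The premalignant replicates lay on opposite sides of 0, at -0.13 and 0.77, and each resembled the lists of its own kind. Within the narrow lists premalignant replicate 1 was 0.20 above the wild type mean, and within the wide lists the malignant mean was 0.32 below premalignant replicate 2 (a change of -0.32). The log2 width ratio was -0.0022 ± 0.0031, 0.19 ± 0.27 and 0.15 ± 0.17 for the same stages. The difference in rank percentile was 0.781 ± 2.74, -2.40 ± 5.05 and 1.35 ± 1.19 points. None of the 9 stage differences could pass this exact permutation test with 2 libraries each.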

How the data were processed

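ChIP-seq of UBTF gave 6 peak lists, 2 per stage. Per the labels, reads were processed with CASAVA 1.8.2, Bowtie and Picard 1.110 on mm9. The methods of the study say that the authors mapped 50-bp paired reads with bowtie2 to mm9 plus an rDNA copy, removed duplicates, and called peaks with SPP for each library. The study then kept peaks reproducible between replicates by an irreproducible discovery rate, and the lists used here, 1 per library, were taken to precede that filter. The deposited lists hold positions, a score in the caller's own units that was used for ranks within a list, and a false discovery rate, stored as a linear q-value. They hold no read counts, so depth is unknown, and intervals and floors cover counting error only.

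Summits (start plus offset) were placed on GENCODE M1 genes and the NCBIM37 sequence, both of the mm9 build. Window densities, medians and shares were computed per library with Python 3.11.15, numpy 2.4.6, pandas 2.3.3 and numba 0.67.0, and plotted with matplotlib 3.10.9. The copy number of 31-mers was counted over both strands of the whole genome, at summits and every 200 bp. Libraries were the replicates, and the labels' numbers 1 and 2 mark separate experiments. Tests were two-sided exact sign-flip tests over libraries and exact permutation tests between stages, adjusted by Benjamini-Hochberg within families of 7, 3 and 9 tests, and were tested on simulated data. p-values measure the spread between these samples.

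Named genes were the 10 receptor genes with the highest mean best percentile among those with a summit in all 6 lists, the best 3 found in Eµ-Myc lists of each stage but in no wild type list and the reverse, and 14 receptors fixed by name, of which 1 (Olfr160) was not found in this annotation. The members, gene lists and tests were chosen with earlier results of these data known. Alternatives covered window size, thresholds, comparison sequence, denominators and leaving out each library. The sequences at some named summits are not reported here.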

Additional observations from a re-analysis of the deposited data

Results flagged for a closer look

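The log2 ratio of receptor to other genic density was below 0 in both wild type libraries and above 0 in both malignant libraries, and the stages differed by 0.78. This stood out because every library of 1 stage moved one way and every library of the other stage the opposite way. The difference was tested with an exact permutation test that cannot pass at this size (p = 0.333). Wild type lists are all narrow and malignant lists all wide, so stage and kind of list cannot be told apart. Among the best 20000 peaks the split by sign did not hold, with a ratio of 1.04 in wild type replicate 2 and 0.974 in malignant replicate 1.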

How the results depend on the processing

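The 7 receptor comparisons, 3 family pairs and 9 stage differences stayed on their side of the threshold under every alternative that gave a p, which is no sign of stability for tests that had not passed. Stage differences that left out 1 library or kept 1 kind of list were not tested. The mean log2 density ratio (0.14) changed to -0.98 for single-copy summits on single-copy bases (exact sign-flip test, p = 0.125, higher in 2 of 6 libraries) and to -0.49 with copy classes standardised (exact test, p = 0.0625). It was -0.27 over the narrow lists and 0.56 over the wide lists, and its remaining settings ran from -0.30 (intergenic sequence as comparison) to 0.58 (windows of 20 kb), with adjusted p of 0.0729 or more. Leaving out 1 library kept it between 0.02 and 0.25. With lists shortened to the best 78113 peaks, the malignant less wild type difference was 0.65 for density, 0.35 for width and -4.43 for rank percentile (0.57 with full lists, so its direction turned). Leaving out 1 library moved the malignant less premalignant density difference from -0.32 (without premalignant replicate 1) to 0.58 (without premalignant replicate 2). For gene starts within 5 kb (-14.2 points) the exact sign-flip test gave p = 0.0938. With the replicate number as a block the density differences were unchanged at 0.65, 0.13 and 0.78, with exact p = 0.5, 1 and 0.5, and no call changed. The numbers share only a name: over 46 clusters the replicate differences of the stages correlated at 0.185, -0.477 and -0.0125. Unknown depth and repeat mapping limit all densities.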
